A study of Mus musculus with 48 samples.

Results

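10 genes of the Wnt pathway and of the crypt stem cell were followed across the colon and liver of mice whose dams, or who themselves, ate a diet low in selenium and folate. The genes were Lgr5, Ascl2, Axin2, Myc, Ccnd1, Sox9, Ephb2, Ephb3, Cd44 and Tcf7, and every array probe whose accession mapped to one of these symbols was taken. Of the 10 genes, 9 had a probe and Ccnd1 had none mapped to it, which left 17 of the 41174 probes of the array. Lgr5, Ascl2, Axin2 and Ephb3 had 1 probe each and the other 5 genes had several. Where a gene had several probes, the brightest in the mouse channel gave the gene's value and the others were read beside it.

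Wnt ligands bind Frizzled and Lrp receptors at the cell surface and keep β-catenin from being broken down, so that it enters the nucleus and works with factors of the TCF family at their target genes. In the colon this signal is strongest at the base of the crypt, where R-spondins and their receptor Lgr5 sustain the stem cells that renew the epithelium. In the liver, Wnt signalling is known for setting the gene expression of hepatocytes around the central vein.

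All mice were C57/BL6 offspring, described as male in the study's methods, were fed on a high-fat diet and were sampled at 12 weeks of age. The first letter of a group is the diet of the dam in gestation and lactation. The second is the diet of the offspring after weaning. Per the study's methods, H was supplemented with selenium and folate to several-fold above the recommended requirement, and L was marginally deficient in both. HH mice therefore had the supplemented diet throughout and LL mice had the deficient diet throughout. HL mice had the deficient diet only after weaning and LH mice only through the dam. Colon was measured in 6 mice of each group, and liver in 6 mice of HL, LH and LL and 5 of HH, because 2 arrays of the HH liver group carried the label of the same mouse and were averaged. Their deviations from the group mean correlated at r = 0.805, against at most 0.261 for any other pair of that group. Nothing in the labels tied a colon to a liver of the same mouse. The litter of a mouse was not given in the sources used here, so that p-values measure the spread between mice that may share a dam.

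Each array held the RNA of 1 mouse in Cy3 and a shared reference RNA in Cy5, and all values are log2 ratios of mouse over reference, in which a difference of 1 is a 2-fold difference. The reference was described as pooled intestinal and liver RNA in the study's methods and as RNA of the whole pregnant mouse and foetus in the deposited labels, so that the sign of a single ratio has no meaning of its own, and ratios were compared between mice for the same probe only. Per array, 66.8 to 73.7% of spots were well above background in the colon and 55.1 to 66% in the liver. The colon arrays lay on slides 7 to 12 and the liver arrays on slides 1 to 6, with 1 mouse of each diet on every slide in the colon, and the tissues were scanned on different days. Tissue, slide and scan day therefore cannot be told apart. Xist, the RNA of the inactive X chromosome, was over a log2 Cy3 intensity of 8.3 in 6 colon arrays and 2 liver arrays. Of the 6 colon arrays, 3 also carried signal of a Y-linked gene and 3 did not. The 6 were HH replicates 1 and 5, HL replicate 5 and LL replicates 1, 3 and 5, so that the diets were unequally hit. Where mice were left out for this reason, the Xist threshold alone was used. The colon of LL replicate 4 stood apart by its lymphocyte genes, whose values stand beside Tcf7. Marker genes of goblet cells and hepatocytes fitted the labels, with Clca1 higher in colon by 7.12 and Muc2 by 4.40 on the log2 scale and Alb lower by 5.05 (log2 difference -5.05). Not every marker of the other lists did. The surface colonocyte gene Aqp8 was lower in colon (log2 difference -3.62), the epithelial Krt18 differed by 0.09 and the pericentral hepatocyte gene Tbx3 by 0.45.

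TCF factors bind the sequence CTTTGAT or CTTTGAA. The 250 bases before each listed transcription start were searched for both on both strands in the RefSeq promoters of GRCm38.p6. Of 32851 promoters, 3.21% held CTTTGAT, 4.46% held CTTTGAA and 7.48% held either. Ascl2, Axin2, Cd44, Ephb2, Ephb3 and Tcf7 had 7 promoters among them, and 0 of the 7 held either motif. The windows of Axin2, Ephb2 and Tcf7 lay inside the gene's annotated span, and that of Ephb3 lay partly inside it. The span of Axin2 begins at 108917828, before its window. The bases before the outermost annotated starts of these genes were therefore not searched, or only in part for Ephb3. Lgr5, Sox9, Myc and Ccnd1 had no entry. The Axin2 promoter is shown because Axin2 is the member most used as a readout of Wnt signalling, and that of Sp5, a Wnt target outside the members, because it held CTTTGAT in its own direction 104 bases before its start. Capitals mark the motif, both are on the plus strand, and the regions are chr11:108920099-108920348 for Axin2 and chr2:70474673-70474922 for Sp5.
Axin2: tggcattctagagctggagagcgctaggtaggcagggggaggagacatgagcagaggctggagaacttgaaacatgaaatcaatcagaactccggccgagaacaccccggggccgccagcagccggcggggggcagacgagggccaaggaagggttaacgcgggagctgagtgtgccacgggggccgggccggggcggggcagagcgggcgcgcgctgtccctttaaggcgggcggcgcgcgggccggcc
Sp5: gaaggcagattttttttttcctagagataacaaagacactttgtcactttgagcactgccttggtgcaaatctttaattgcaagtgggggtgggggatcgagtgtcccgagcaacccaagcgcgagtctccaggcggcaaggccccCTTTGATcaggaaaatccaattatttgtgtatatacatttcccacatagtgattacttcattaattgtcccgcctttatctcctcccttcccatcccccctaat
A match describes these letters only, and its absence from this window says nothing on whether a factor binds elsewhere.

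In the colon, the diets left the 9 measured genes within the spread of the mice. In each of the 9 comparisons of the design (the dam's diet, the offspring's diet, their interaction and the 6 pairs of groups), limma called 0 of the 17 member probes at a fold change over 1.5 and a false discovery rate under 0.05, and it called 0 of all 41173 probes tested, which is 0%. The F test over the 4 diets called 0 of the 17, and the lowest unadjusted p among them was 0.0732, for the second Sox9 probe. At an unadjusted p under 0.05, 1 of the 17 probes passed for LH against HH, against 8.08% of all probes, and 2 of 17 passed for LL against LH, against 7.18%. For the other comparisons 0 of 17 passed, against 5.42% of all probes for the dam's diet, 5.44% for the offspring's diet, 4.8% for the interaction, 3.29% for HL against HH, 3.44% for LL against HH, 2.4% for LL against HL and 7.9% for HL against LH. No member probe separated any pair of diet groups without overlap, which between 0.0367% and 0.176% of all probes did. The median difference of the 17 probes for LH against HH was 0.02 on the log2 scale, beside 0.00 over all probes tested. In the self-test, simulated log2 differences of 0.8 to 1.2 for this comparison were called for 198 of 200 probes. These sizes lie above the 1.5-fold cut and above the largest member difference here, 0.30. The self-test therefore does not tell how well differences of the members' size would be found.

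**Figure D1:**
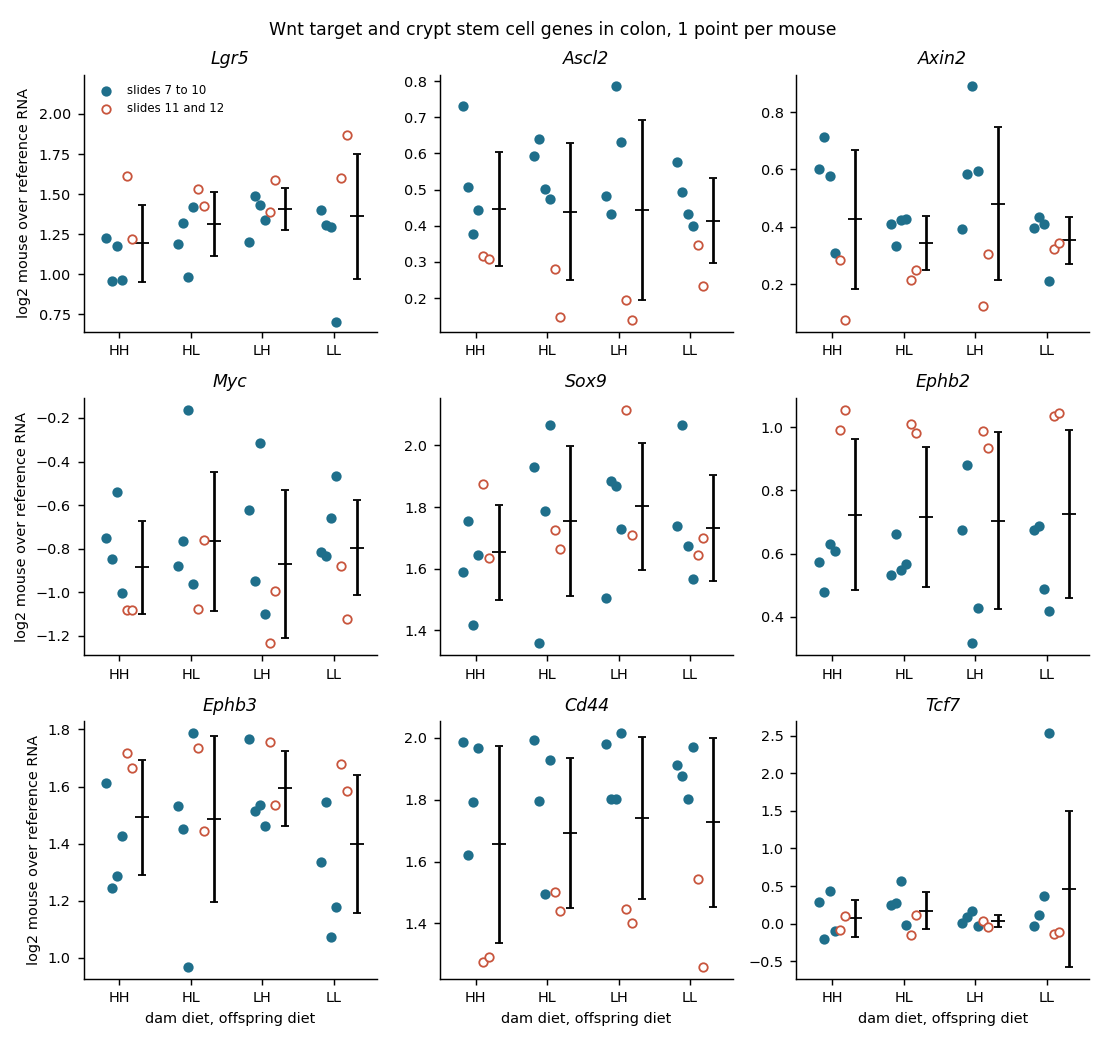
Log2 ratio of mouse over reference in the colon for the main probe of each of the 9 measured genes, with 1 point per mouse, 6 mice per diet (HH, HL, LH, LL), bars for the mean ± SD, and a vertical scale of its own in each panel. The diets overlapped for every gene, and LL replicate 4 stood at 2.53 for Tcf7.

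Lgr5, the R-spondin receptor that marks stem cells at the crypt base, ran from 0.96 through a median of 1.2 to 1.61 in HH mice and from 1.2 through 1.41 to 1.59 in LH mice. The HL mice ran from 0.98 through 1.37 to 1.53 and the LL mice from 0.70 through 1.35 to 1.87. The means ordered HH at 1.19 ± 0.24, HL at 1.31 ± 0.20, LL at 1.36 ± 0.39 and LH at 1.41 ± 0.13 (SD, n = 6 each), and every step in that order was smaller than the SD within a group. The 4 groups overlapped. LH exceeded HH by 0.21 on the log2 scale (SE 0.11, 95% interval -0.02 to 0.45, limma adjusted p = 0.671). Without the mice over the Xist threshold, among them HH replicates 1 and 5, this difference was 0.37 (adjusted p = 0.600). The lowest Lgr5 ratio of the 24 colons, 0.70, was that of LL replicate 4. Without this mouse the difference of LH and HH was the same with a 95% interval of 0.03 to 0.40 (adjusted p = 0.473), past the unadjusted threshold. LL then exceeded HH by 0.29 in place of 0.17 (adjusted p = 1.00 in both). The 95% interval of this 0.29 was 0.09 to 0.49, so that it also passed the unadjusted threshold.

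Ascl2, the transcription factor that works with β-catenin to keep the stem cell state, ran from 0.14 to 0.79 over the 24 colons with a median of 0.44. Its group means lay between 0.41 in LL and 0.45 in HH, and LH and HH differed by 0.00 (SE 0.07, 95% interval -0.15 to 0.14). The gene's highest and lowest values both lay in LH. Axin2, the scaffold of the β-catenin destruction complex that is itself switched on by Wnt signalling, ran from 0.08 to 0.89 with a median of 0.39. LH exceeded HH by 0.05 (SE 0.08, 95% interval -0.12 to 0.23, adjusted p = 0.926). The spread of Axin2 was wider in the 2 groups HH and LH (SD 0.24 and 0.27, n = 6 each) than in HL and LL (0.09 and 0.08), a contrast that was not tested.

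Among the transcription factors of the crypt, Myc, which drives growth and division, ran from -1.23 to -0.16 with a median of -0.86, and LH and HH differed by 0.02 (SE 0.10, 95% interval -0.19 to 0.22). Sox9, a factor of the crypt base and of progenitor cells, had group means from 1.65 in HH to 1.80 in LH on its main probe, a difference of 0.15 (SE 0.11, adjusted p = 0.804). The second Sox9 probe was the member probe that passed the unadjusted threshold for LH against HH. It ran from 1.37 through 2.07 to 2.23 in HH and from 2.18 through 2.27 to 2.44 in LH. The difference was 0.30 on the log2 scale (SE 0.11, limma adjusted p = 0.508). HH replicate 3 was the lowest mouse at 1.37, with the next at 1.99, and without it the difference was 0.21 (adjusted p = 0.724). The same probe was lower in LL than in LH by 0.24 (difference -0.24, limma adjusted p = 0.694), again past the unadjusted threshold, and the dimmest Sox9 probe gave 0.01 for LH against HH.

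The surface proteins of the crypt gave small differences as well. Ephb2 and Ephb3, receptors for ephrin-B ligands that sort cells along the crypt, differed between LH and HH by -0.02 (SE 0.07) and 0.10 (SE 0.09). Ephb3 ran from 1.46 through 1.53 to 1.77 in LH and from 1.07 through 1.44 to 1.68 in LL. The 2 groups overlapped, and LL was lower by 0.20 (difference -0.20, SE 0.09, limma adjusted p = 0.690), the other of the 2 probes past the unadjusted threshold in that comparison. Cd44, a hyaluronan receptor found on crypt cells and on leukocytes, ran from 1.26 to 2.01 over the 24 colons, and LH exceeded HH by 0.09 (SE 0.06, 95% interval -0.04 to 0.21). For LH against HH, the 95% intervals of 8 of the 9 genes lay within a 1.5-fold change either way, and Tcf7 was the exception at -0.61 to 0.54. That width came with LL replicate 4, a mouse outside this comparison that entered the shared estimate of the spread. Without it the Tcf7 difference stayed at -0.04 with an interval of -0.19 to 0.12, and 9 of the 9 genes lay within 1.5-fold.

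**Figure D2:**
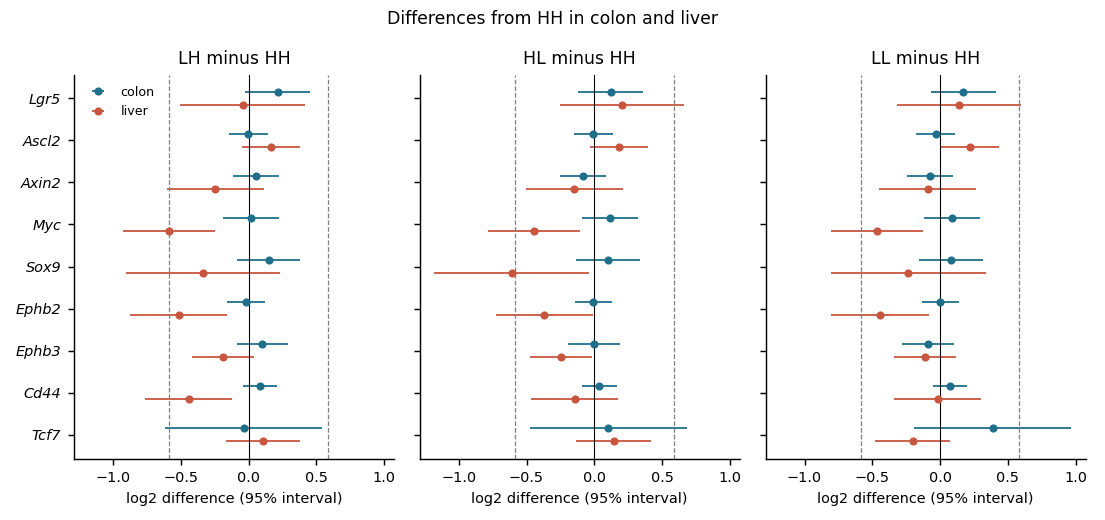
Differences between diet groups on the log2 scale for the main probe of each member in colon and liver, with 95% intervals from limma and dashed lines at a 1.5-fold change. In the colon 8 of the 9 intervals for LH against HH lay inside the dashed lines, and for the same comparison in the liver Myc, Ephb2 and Cd44 lay below 0.

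Tcf7 encodes a DNA-binding partner of β-catenin and is also a factor of T lymphocytes. It ran from -0.20 through 0.01 to 0.43 in HH, from -0.15 through 0.18 to 0.57 in HL, from -0.05 through 0.02 to 0.16 in LH and from -0.14 through 0.04 to 2.53 in LL. The value of 2.53 was that of LL replicate 4, and the highest of the other 23 colons was 0.57. LL exceeded HH by 0.39 (SE 0.28, adjusted p = 1.00), and without LL replicate 4 the difference was -0.06 (95% interval -0.22 to 0.11). The mice over the Xist threshold included LL replicates 1, 3 and 5 and HH replicates 1 and 5, but not LL replicate 4. Without them the difference was 0.88 or 1.84-fold (adjusted p = 0.712) and passed the unadjusted threshold. The second Tcf7 probe stood at 1.39 in that mouse and at most at 0.60 in the others.

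Lymphocyte genes were high in the same colon. Ms4a1, the B cell surface protein CD20, stood at 4.22 there and at most at 0.15 in the other mice. Cd79b, a part of the B cell receptor, stood at 3.78 against at most 0.32, Cd3d of the T cell receptor complex at 2.37 against at most 0.76, and the T cell kinase Lck at 2.28 against at most 0.63. Not every gene of these lists was highest there, and Cd3e ranked 3rd and Jchain 4th of the 24 colons. The mean log2 ratio over the 7 T cell genes was 1.35 in this mouse and that over the 6 genes of B and plasma cells was 2.32. In whole tissue, more cells of a type and more RNA per cell cannot be told apart. The part of lymphoid cells in the Tcf7 value was not tested. Among the other members, counted from the highest of the 24 colons, LL replicate 4 ranked 24th for Lgr5, 23rd for Ephb2 and 22nd for Axin2 and Ephb3, but 3rd for Myc and 5th for Cd44. Its list means were also the lowest of the 24 colons for epithelium (0.35, against at least 0.62 in the others), goblet cells (0.44 against 0.67), surface colonocytes (-0.20 against -0.14), smooth muscle (1.34 against 1.38) and enteric neurons and glia (1.30 against 1.41). The same held for further crypt genes (-0.006 against 0.07), Wnt receptors (-0.15 against -0.06) and Wnt inhibitors (-0.58 against -0.51). Its myeloid list mean was the highest (0.57, against at most 0.46). The part of the cells behind these lists in the members' ranks was not tested.

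**Figure D3:**
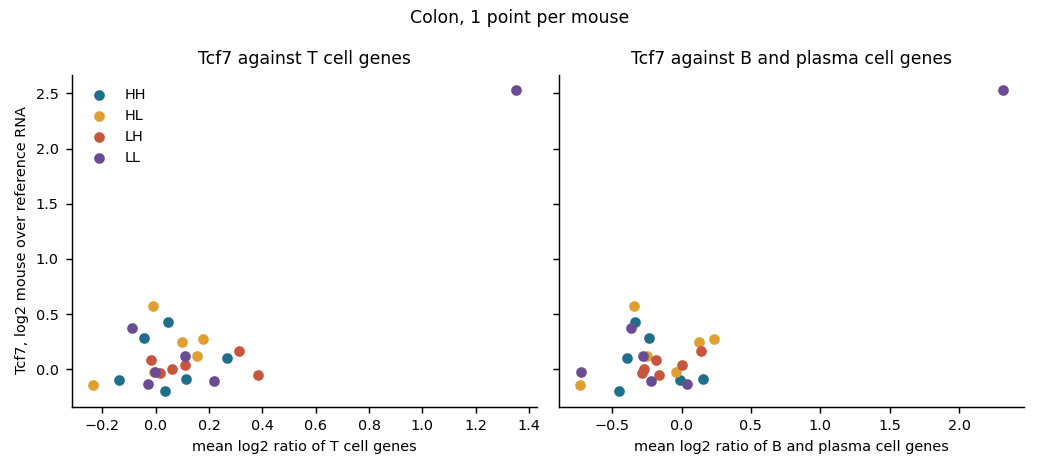
Log2 ratio of Tcf7 against the mean log2 ratio of the marker genes of T cells and of B and plasma cells in each of the 24 colons. LL replicate 4, at 2.53 for Tcf7, lay at 1.35 for T cells and 2.32 for B and plasma cells, apart from the other 23 mice.

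Several members differed between slides in the colon. Between the 6 colon slides, 8 of the 17 member probes and 6 of the 9 genes (Ascl2, Axin2, Cd44, Ephb2, Ephb3 and Myc) differed at a false discovery rate under 0.05, and so did 40.3% of all probes. Between the liver slides, 0 of 17 member probes and 4.95% of all probes did. Ephb2 ran from 0.93 to 1.06 in the 8 colons of slides 11 and 12 and from 0.31 to 0.88 in the 16 of slides 7 to 10, with no overlap. Ascl2 moved the other way, from 0.14 to 0.35 on slides 11 and 12 and from 0.38 to 0.79 on slides 7 to 10. Cd44 ran from 1.26 to 1.55 on slides 11 and 12 and from 1.5 to 2.01 on the others, and its second probe did not differ between slides (adjusted p = 0.761). Since every slide held 1 mouse of each diet, the slide was removed as a block from all diet differences above. The part of the slides' handling in these levels was not tested.

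**Figure D4:**
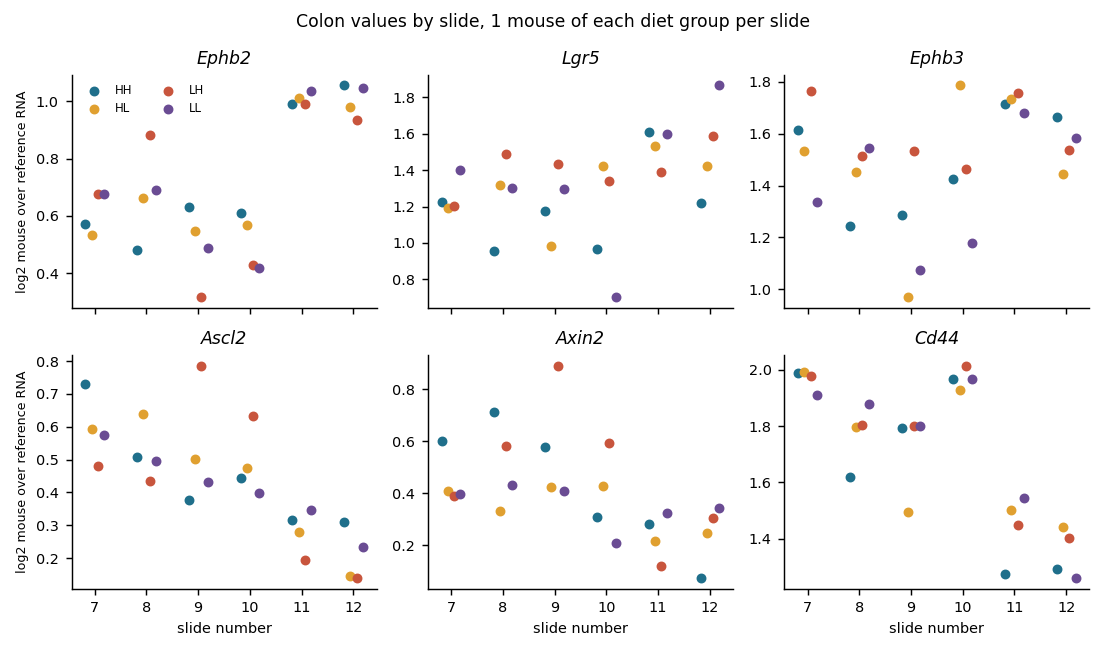
Log2 ratio of mouse over reference of Ephb2, Lgr5, Ephb3, Ascl2, Axin2 and Cd44 in the 24 colons by slide (slides 7 to 12, 4 mice each). Myc, Sox9 and Tcf7 are not drawn. Ephb2 lay higher, and Ascl2 and Cd44 lower, on slides 11 and 12 than on slides 7 to 10.

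Levels of the members were compared with each other over the 24 colons, in 36 pairs of genes. Of the 36 pairs, 14 had an adjusted permutation p under 0.05 for Pearson's r, 6 of them positive and 8 negative, and 11 of the 14 also passed for Spearman's rho. The permutation exchanged mice between slides, by which 6 of the 9 genes differed. With group and slide means removed 5 of 36 pairs passed, and within the 16 mice of slides 7 to 10, 0 of 36 did. The values with those means removed keep 15 degrees of freedom over the 24 mice. The permutation did not take this into account, so that the p-values behind the 5 pairs tend to be too small. Ascl2 and Axin2 gave r = 0.697 and rho = 0.721 over all mice (adjusted permutation p = 0.00153 and 0.003), r = 0.622 without the 2 mice farthest from the Ascl2 median, r = 0.514 within slides 7 to 10 (adjusted p = 0.306) and r = -0.05 in the 8 mice of slides 11 and 12, which carry no test here. With group and slide means removed the pair gave r = 0.512. Ascl2 and Ephb2, which both followed the slides, gave r = -0.778 over all mice, r = -0.368 within slides 7 to 10 (adjusted permutation p = 0.460) r = 0.708 on slides 11 and 12 and r = -0.453 with group and slide means removed. Ephb2 and Cd44 gave r = -0.764 over all mice, r = 0.01 within slides 7 to 10 and r = 0.031 with those means removed, while Lgr5 and Axin2 went from -0.07 to 0.547.

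Lgr5 and Ephb3 gave r = 0.564 and rho = 0.523 over the 24 colons (adjusted permutation p = 0.0148 and 0.0358), r = 0.535 without the 2 farthest mice and r = 0.511 within slides 7 to 10 (adjusted permutation p = 0.306). On slides 11 and 12 the value was -0.13, and with group and slide means removed it was 0.567. Lgr5 and Tcf7 gave r = -0.609 and rho = -0.477 (adjusted permutation p = 0.00531 and 0.0533), r = -0.355 without the 2 farthest mice and r = -0.404 without LL replicate 4. Neither pair passed within slides 7 to 10, where Lgr5 and Tcf7 gave r = -0.615 (adjusted permutation p = 0.306), beside -0.666 with group and slide means removed.

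Probes of the same gene did not all follow each other over the 24 colons, and most followed each other more closely once group and slide means were removed. The 2 Tcf7 probes gave r = 0.886, and r = 0.632 without LL replicate 4. The first and second Sox9 probes gave r = 0.716, whereas the dimmest Sox9 probe, which lay well above background in the reference channel on 19 of 24 colon arrays, gave r = 0.01 with the first. The brightest and the second Cd44 probe gave r = 0.04, the 2 Ephb2 probes r = 0.319, and the 3 Myc probes r from 0.322 to 0.866. With group and slide means removed, as in the diet comparisons, these values were 0.424 for Cd44, 0.562 for Ephb2 and 0.703 to 0.862 for Myc, with 0.944 for Tcf7 and 0.912 for the first and second Sox9 probes. The dimmest Sox9 probe stayed at 0.10 with the first, and the dimmest Cd44 probe gave -0.23 with the brightest. These are descriptions of 24 arrays that share slides.

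Of the 20331 other probes with a gene name and signal on all colon arrays, those most like Lgr5 over the 24 mice belonged to Fam110b (r = 0.889), Syn3 (0.884), Arhgef17 (0.884), Ctnna2 (0.873) and Sobp (0.871). Those most like Ascl2 belonged to Mfsd3 (r = 0.906), Klhl26, Wdr92, Thap7 and Mrpl55, and those most like Axin2 to Exo5 (r = 0.830), Otc, Polr2h, Hnrnpa1 and Scml4. None of these 15 genes is a member. With group and slide means removed, the r of Fam110b with Lgr5 was 0.837 and that of Mfsd3 with Ascl2 was 0.707. The values share arrays and slides and carry no test.

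The other parts of the Wnt pathway were read from lists of ligands, R-spondins, receptors, inhibitors, transducers and further crypt genes, in all 93 genes with a probe. In the colon, 0 of the 93 were called in any comparison. For LH against HH, 9 of 93 (6 higher, 3 lower) passed an unadjusted p under 0.05, or 9.68% beside 8.08% of all probes. For LL against LH, 11 of 93 did (1 higher, 10 lower), or 11.8% beside 7.18%. Median differences over the 93 were 0.02 and -0.01, beside 0.00 over all probes for both.

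Among receptors, Lgr4, the second R-spondin receptor of the crypt, exceeded HH in LH by 0.21 (SE 0.07, adjusted p = 0.479) and was lower in LL than in LH by 0.26 (difference -0.26, adjusted p = 0.539), with neither passing the adjusted threshold. The Frizzled receptor Fzd7 gave 0.10 and -0.19 for the same 2 comparisons. Among inhibitors, Znrf3, the membrane ligase that removes Frizzled and is itself a Wnt target, gave 0.22 (adjusted p = 0.458) and -0.20, and the secreted Frzb gave 0.12 and -0.20. Among transducers, Tcf7l2, the main TCF factor of the gut epithelium, gave 0.27 (adjusted p = 0.481) and -0.30 (adjusted p = 0.554), and Axin1 gave -0.07 and 0.15. The ligands Wnt3a and Wnt5b gave 0.15 and 0.05 for LH against HH, and the R-spondins Rspo1 and Rspo4 gave 0.12 and -0.04. The crypt genes Rgmb and Msi1 gave 0.17 and 0.07. The 2 comparisons share the LH mice, so that their opposite signs are not independent of each other.

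None of the marker genes of other cells was called between LH and HH in the colon. At an unadjusted p under 0.05, which 4.94% of all probes passed as higher and 3.14% as lower in LH, 3 of 7 genes of enteric neurons and glia were higher, among them Elavl4 by 0.22 and Uchl1 by 0.17, and 1 of 5 myeloid genes, Adgre1, was higher by 0.35 (adjusted p = 0.421). Of the 9 genes of surface colonocytes 3 were lower, among them the chloride exchanger Slc26a3 by 0.45 (difference -0.45, adjusted p = 0.546). The mean over the neuron and glia list was 1.56 ± 0.11 in HH and 1.68 ± 0.06 in LH, and that over the surface colonocyte list was 0.20 ± 0.18 in HH and 0.06 ± 0.15 in LH (SD, n = 6 each). None of the 10 epithelial, 8 smooth muscle, 6 fibroblast, 7 goblet cell, 7 T cell and 6 B and plasma cell genes passed. Their part in the members' values was not tested.

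In the liver, limma called 0 of the 17 member probes in each of the 9 comparisons, and 0 of 41171 probes in all, which is 0%. At an unadjusted p under 0.05, 6 of 17 probes passed for LH against HH (1 higher, 5 lower), against 14.8% of all probes, and the 1 higher was the dimmest Cd44 probe, which was near background in liver. Their median difference was -0.19, beside -0.01 over all probes. For the other comparisons, 4 of 17 passed for the dam's diet (5.63% of all probes), 0 for the offspring's diet (2.03%), 5 for the interaction (14.2%), 6 for HL against HH (6.5%), 5 for LL against HH (4.67%), 2 for LL against HL (4.88%), 2 for LL against LH (9.52%) and 1 for HL against LH (2.49%). The comparisons against HH share the same 5 HH mice.

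Myc ran from -1.87 through -1.52 to -0.85 in the HH livers and from -2.40 through -1.99 to -1.63 in the LH livers, and the groups overlapped. LH was lower by 0.59 (difference -0.59, SE 0.16, limma adjusted p = 0.134). In a fit of all 8 groups of both tissues, the same difference had an adjusted p of 0.0133 and was called, with the fold of 1.502 barely past the cut of 1.5. That fit takes 1 estimate of the spread from both tissues, and Myc spread less in the colons (SD 0.26) than in the livers (SD 0.35). The share of all probes called in that fit is not given here, and the liver fit called 0 of 41171. The second Myc probe gave -0.44 (adjusted p = 0.175) and the dimmest -0.11. HL and LL livers differed from the HH livers by -0.44 and -0.46 (adjusted p = 0.762 and 0.993).

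Ephb2 ran from -1.69 through -1.39 to -1.16 in HH livers and from -2.21 through -1.98 to -1.55 in LH livers. LH was lower by 0.52 (difference -0.52, SE 0.17, adjusted p = 0.177). Cd44 ran from -0.28 through -0.05 to 0.39 in HH and from -0.63 through -0.52 to -0.34 in LH, so that every LH liver lay below every HH liver, as was the case in either direction for 1.54% of all probes. The difference was -0.44 (SE 0.15, adjusted p = 0.192). Without the HH mouse on 2 arrays it was -0.25 (adjusted p = 0.374) and no longer passed the unadjusted threshold. The second Cd44 probe gave -0.35. The dimmest was well above background on 1 of 24 liver arrays, so that no difference is given for it. In the fit of all 8 groups Ephb2 and Cd44 had adjusted p-values of 0.0192 and 0.0244, at folds of 1.43 and 1.36 that stayed under the threshold of 1.5.

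The stem cell genes gave smaller differences between LH and HH in the liver. For LH against HH, Lgr5 differed by -0.04 (SE 0.22, 95% interval -0.50 to 0.41), Ascl2 by 0.16 (SE 0.10) and Axin2 by -0.25 (SE 0.17, 95% interval -0.60 to 0.11). Axin2 was at -0.43 without HH replicate 2 (adjusted p = 0.158), which passed the unadjusted threshold, and at -0.09 without HH replicate 5, and Ascl2 was at 0.09 without the HH mouse on 2 arrays. Lgr5 spread more widely in the HH livers, from 0.34 to 2.08, than in the LH livers, from 0.93 to 1.60. Sox9, which in liver marks bile duct cells, differed by -0.34 (SE 0.27), Ephb3 by -0.19 (SE 0.11) and Tcf7 by 0.11 (SE 0.13). Sox9 was at -0.60 without HH replicate 2 (adjusted p = 0.245), again past the unadjusted threshold, -0.52 without LH replicate 2, -0.22 without HH replicate 5, -0.20 without LH replicate 6 and -0.15 without the HH mouse on 2 arrays. Tcf7 was at 0.21, 0.02 and 0.05 without HH replicates 1, 2 and 4.

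Genes of other liver cells were read for the same contrast, in which 7.48% of all probes were lower and 7.37% higher in LH at an unadjusted p under 0.05, and none of them was called. Among B and plasma cell genes 3 of 6 were lower by that threshold, with Ms4a1 at -0.47 (adjusted p = 0.142), and the mean over the list ran from -0.81 to -0.56 in HH livers and from -1.05 to -0.71 in LH livers. Of the T cell genes 2 of 7 were lower (Cd3d at -0.55, Lck at -0.25) and Cd3e was higher by 0.22. Of the fibroblast genes 2 of 6 and of the myeloid genes 1 of 5 were lower, with list means from -2.88 to -1.17 and from -0.93 to 0.51 in HH and from -3.04 to -2.36 and from -0.96 to -0.25 in LH. Hepatocyte genes had a list mean from 1.30 to 1.73 in HH and from 1.58 to 1.96 in LH. The part of these cells in the differences of Myc, Ephb2 and Cd44 was not tested.

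Of the 93 further Wnt genes, 0 were called in the liver and 15 passed the unadjusted threshold for LH against HH (10 higher, 5 lower), or 16.1% beside 14.8% of all probes. Of the inhibitors, Apcdd1 was at 0.58 (adjusted p = 0.118), Znrf3 at 0.55, Notum at 0.47 and Frzb at -0.45. Of the receptors, Fzd8 was at 0.54, Lgr4 at 0.53 and Fzd4 at 0.43, and the ligand Wnt1 was at 0.18. Of the transducers, Tle3 and Porcn were at 0.20 each and Wls, which carries Wnt ligands to the cell surface, at -0.30. Of the crypt genes, Hopx was at 0.36, Mki67 at -0.40, Cdca7 at -0.32 and Bmi1 at -0.25. None of the 15 passed the adjusted threshold.

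Whether a diet difference itself differed between colon and liver was tested in 1 fit of both tissues. Limma called 0 of the 17 member probes in the 9 comparisons, and 0% of 41171 probes. For LH against HH, 5 of 17 passed an unadjusted p under 0.05 (12.9% of all probes), with Cd44 at 0.53 (SE 0.16, adjusted p = 0.175), Myc at 0.60 (SE 0.19, adjusted p = 0.186) and Ephb2 at 0.50 (SE 0.18, adjusted p = 0.236), each as the colon difference minus the liver difference. For the other comparisons, 3 of 17 passed for the dam's diet (6.56%), 0 for the offspring's diet (3.21%), 6 for the interaction (8.78%), 3 for HL against HH (3.96%), 4 for LL against HH (4.31%), 0 for LL against HL (2.82%), 3 for LL against LH (8.49%) and 2 for HL against LH (5.79%).

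The tissues themselves differed widely. With the slide as a random block (correlation within slides 0.206), 11 of the 17 member probes and 7 of the 9 genes were called between colon and liver, and so were 12493 of 41171 probes, or 30.3%. Because each slide held 1 tissue, tissue, slide and scan day cannot be told apart in these values. The Eph receptors stood furthest apart. Ephb3 ran from 0.97 to 1.79 in the colons and from -1.94 to -1.17 in the livers, and colon was higher by 3.00 on the log2 scale, or 7.97-fold (SE 0.08, limma adjusted p = 1.41e-33). Ephb2 was higher by 2.47, or 5.54-fold (SE 0.10). Its second probe was not well above background on any liver array and was at least 1.81-fold higher in colon, with the liver bounded by the lowest signal well above background.

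Sox9 ran from 1.36 to 2.12 in the colons and from -1.0 to 0.80 in the livers, and colon was higher by 1.94, or 3.85-fold (adjusted p = 3.77e-17). Its second probe gave 4.46-fold, and the dimmest, not well above background on any liver array, at least 1.21-fold. Cd44 was higher in colon by 1.90, or 3.74-fold, and the second probe gave 4.33-fold. Myc was higher by 1.01, or 2.01-fold, on its main probe and by 1.68-fold on the second, and the dimmest probe gave -0.10 (adjusted p = 0.278). Axin2 ran from 0.08 to 0.89 in the colons and from -1.08 to 0.16 in the livers, and was higher in colon by 0.84, or 1.79-fold (adjusted p = 6.16e-11).

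The stem cell genes did not follow that order. Ascl2 ran from 0.14 to 0.79 in the colons and from 0.63 to 1.46 in the livers, and colon was lower by 0.70 (difference -0.70, 1.63-fold, SE 0.07, limma adjusted p = 5.03e-13). Lgr5 ran from 0.70 to 1.87 in the colons and from 0.34 to 2.08 in the livers, and the difference was -0.08 (SE 0.12, 95% interval -0.32 to 0.17, adjusted p = 0.618). Tcf7 gave -0.05 (SE 0.16, 95% interval -0.37 to 0.27, adjusted p = 0.809), and -0.16 without LL replicate 4 of the colon. The direction of each of the 9 genes was the same with the scanner's processed signals and with the Cy3 channel alone, quantile-normalised over both tissues. With the processed signals Lgr5 had a limma adjusted p of 0.0316, under the 1.5-fold cut. Raw mean log2 Cy3 intensity, not normalised between tissues, was higher in colon for Ascl2 (7.88 against 7.43), Lgr5 (9.58 against 8.43) and Tcf7 (7.95 against 7.10). Of the further Wnt genes, 49 of 93 were called between the tissues, 32 higher and 17 lower in colon, or 52.7% beside 30.3% of all probes. Of the 15 further crypt genes, Sp5 (log2 difference -1.70), Tert (-0.96) and Bmi1 (-0.68) were called lower in colon. Hopx (-0.55) and Tnfrsf19 (-0.31) were lower within the 1.5-fold cut. All others of that list were called higher, among them Prom1 (4.86), Mki67 of dividing cells (3.32) and Cdx1 (3.18).

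**Figure D5:**
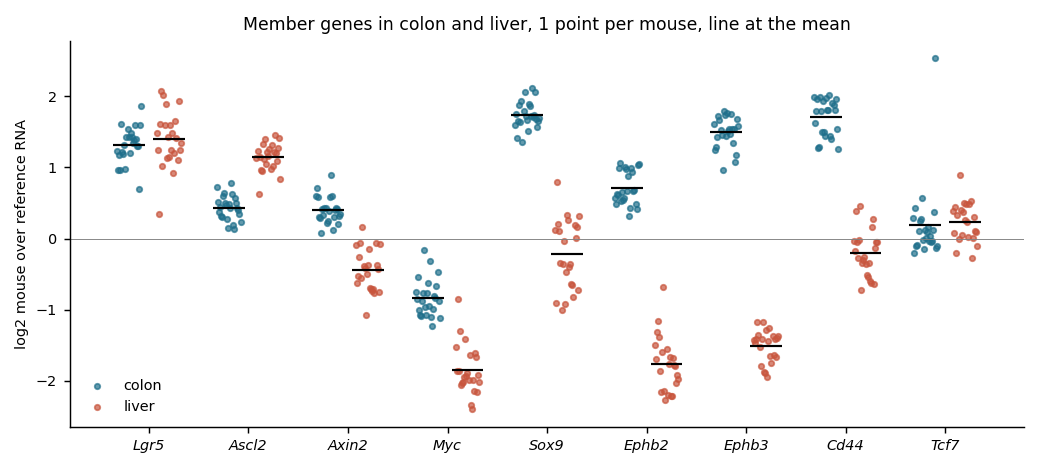
Log2 ratio of mouse over reference for the main probe of each member in the 24 colons and 23 livers. Ephb3, Ephb2, Sox9 and Cd44 did not overlap between the tissues and lay higher in colon, Ascl2 lay lower in colon, and the ranges of Lgr5, Tcf7, Myc and Axin2 overlapped.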

How the data were processed

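Per the labels and the study's methods, Agilent 44k arrays of 24 colon and 24 liver samples were scanned by the authors with Feature Extraction, and the deposited intensity per spot and channel was used here. The authors also deposited a table of normalised log2 ratios, which was used as an alternative. The submitters' processing notes name R 3.0.2 and limma. Median signals were background-corrected (normexp, offset 50, with a spot's background above its signal set to the array's median background), normalised by global loess per array, and turned to Cy3 over Cy5. Control spots and outlier flags were left out and spots of a probe averaged. Limma 3.58.1 (R 4.3.3) tested each comparison over all probes with Benjamini-Hochberg adjustment. All 4 diets of a tissue entered 1 fit with the slide as a block, and a probe was called at a fold change over 1.5 and a false discovery rate under 0.05. Probes were named by accession through RefSeq, and 27050 of 41174 had a gene name. The number of arrays limits the precision. Permutation tests drew 100000 resamples. The fit was tested on simulated data for LH against HH in the colon: 198 of 200 probes changed by log2 0.8 to 1.2 were recovered (99%). Smaller changes were not simulated.

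The members and the gene lists were chosen with earlier results of these data known. Beside all member probes, the text names from each list the 2 genes with the lowest p in the colon diet F test, and the 5 probes most like Lgr5, Ascl2 and Axin2. Alternatives changed the background correction, intensity, normalisation, blocks, weights, filters, thresholds and mice.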

Additional observations from a re-analysis of the deposited data

Results flagged for a closer look

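Among 136 groups of 5 or 6 mice (17 probes in 4 diets of both tissues), 9 had 1 mouse far from the other mice of its group, where chance gives about 1 in 20, or 6.8 groups, so that the number is close to that of chance. In the colon, Tcf7 stood at a log2 ratio of 2.53 in LL replicate 4, the second Sox9 probe at 1.37 in HH replicate 3 and the main Sox9 probe at 2.07 in LL replicate 2. HL replicate 3 of the colon stood apart both for Myc, at -0.162, and for the second Ephb2 probe, at 1.23. In the liver, HL replicate 5 stood apart for Myc on its first and second probes, at -1.41 and -1.37. The dimmest Cd44 probe stood at -0.345 in LH replicate 3 and the dim second Ephb2 probe at -0.503 in LL replicate 4, and these probes were well above background on 1 and 0 of the 24 liver arrays.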

How the results depend on the processing

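In the colon, 0 member probes were called in any comparison under each alternative kept at the adjusted threshold, and leaving out any 1 mouse left all counts of calls in colon and liver at 0. At an unadjusted p under 0.05 with no fold threshold, the counts were 1 for LH against HH and 2 for LL against LH in the colon. In the liver they were 4 for the dam's diet, 5 for the interaction, 6 for LH against HH, 6 for HL against HH, 5 for LL against HH, 2 for LL against HL, 2 for LL against LH, 1 for HL against LH and 5 for the F test. For the colon difference minus the liver difference they were 3, 6, 5, 3, 4, 3 and 2 for the dam's diet, the interaction, LH against HH, HL against HH, LL against HH, LL against LH and HL against LH. The fit of all 8 groups, which shares the spread of both tissues, called 1 liver probe, Myc, for LH against HH, at a fold of 1.502. The share of all probes called in it is not given here. Between colon and liver, 11 to 13 of the 17 probes were called over 3 alternatives. Of the 36 pairs, 14 passed, 5 with group and slide means removed (with p-values that tend to be too small) and 0 within slides 7 to 10.

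Small colon differences for LH against HH changed sign. Myc was at -0.042 with plain normexp, -0.014 with processed signals, -0.045 with median centring, -0.025 with Cy3 alone, -0.028 with array position as a further block, -0.018 with array weights and -0.032 on slides 11 and 12. Ascl2 was at 0.12 with plain normexp, 0.0063 with no offset, 0.029 with array position, 0.071 without the mice over the Xist threshold and 0.068 on slides 7 to 10. Ephb2 was at 0.0067 with plain normexp, 0.028 with array weights and 0.0022 on slides 7 to 10. Axin2 was at -0.0046 with median centring and Ephb3 at -0.045 on slides 11 and 12, where Tcf7 was at -0.13 for LL against HH. In the liver, Lgr5 was at 0.082 with plain normexp, 0.036 with median centring and 0.081 with the arrays of 1 HH mouse counted apart. Over leaving out 1 mouse, the values ran from -0.033 to 0.063 for Myc, -0.071 to 0.030 for Ascl2, -0.19 to 0.090 for Tcf7, -0.057 to 0.50 for Tcf7 in LL against HH, -0.077 to 0.025 for Ephb2 and -0.0083 to 0.11 for Axin2 in the colon. For Lgr5 in the liver they ran from -0.12 to 0.21, and the value was -0.29 without the HH mouse on 2 arrays. The cause was not tested.

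The slide subsets, the tests of the tissue difference beyond the planned ones and the tissue fits without LL replicate 4 were chosen after seeing the data. No paired analysis was possible because replicate numbers here follow accession order and the labels pair no mice. The slide served as the block, and without it 0 members were called in colon or liver. Spots near background limit the dim probes of Cd44, Ephb2 and Sox9 in liver.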
